A study of Mus musculus with 14 samples.

Results

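The oldest hematopoietic stem cells (HSC) of the series, from WT mice of 21 mo, were set against all HSC taken at 12 mo, from WT, p53+/- and p53+/m mice. These were 8 arrays of the 14 in the series, 2 at 21 mo and 6 at 12 mo, with 2 arrays (A and B) for each genotype, and they were chosen by their sample titles alone. The comparison asks which transcripts moved after 12 mo, whatever the p53 genotype on the 12 mo side. The labels give male mice of the C57Bl/6 strain throughout. By the study's methods the p53 mutants were back-crossed onto this background, so their background may differ from that of WT. The p53+/- mice carry 1 working copy of p53, the p53+/m mice carry a truncated p53 allele that raises p53 activity, and the 21 mo mice carry neither, so no 21 mo counterpart of the mutants was analysed here and age and genotype differ together against the mutants. HSC were sorted as lineage-negative side population cells, which pump out the dye Hoechst, with c-Kit and Sca-1 on their surface. RNA of each array came from a pool of 2 to 5 mice and went through 2 rounds of in vitro transcription before hybridization to an Affymetrix MOE430A array. An age field in the labels reads 2 mo for every sample, and the ages used here are those of the titles.

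HSC are the rare marrow cells that renew themselves and give rise to every blood lineage. In old mice they are known to grow in number, to repopulate less well and to favor myeloid over lymphoid progeny. The transcription factor p53 stops division or triggers death after damage, and it also holds HSC in quiescence. Neutrophils and monocytes, myeloid descendants of HSC, are marked by granule proteins and by receptors for microbes, antibodies and growth factors.

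All levels are GC-RMA values on the log2 scale, on which 1 unit is a 2-fold difference, and differences are the 21 mo mean minus the mean of the 3 genotypes at 12 mo. Calls of a rise or a fall required an adjusted p under 0.05 in limma and at least a 2-fold difference. Of 22626 probe sets, 147 rose (0.65%) and 68 fell (0.301%). At an unadjusted p of 0.05 or less and 2-fold, the numbers were 779 and 410. The median difference over all probe sets was -0.03. The called rises had a median of 1.55, and 140 of them carry 1 gene symbol, for 134 genes. The called falls had a median of -1.30, and 60 of them carry 1 symbol, for 56 genes. Both 21 mo arrays lay above all 6 arrays of 12 mo in 136 of the 147, where 6.4% of all probe sets did, and below them in 65 of the 68, where 16.3% did. The same arrays made the calls, so this separation is a description and no further support for them. The p-values measure the spread between pools of mice, and in such bulk samples fewer cells of a type and less RNA per cell cannot be told apart.

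The arrays were not equally close to their groups. In a principal component analysis of 12 HSC arrays, where the leading axis took up 42.1% of the variance, the 21 mo arrays lay at 67.4 and 64.8, WT A of 12 mo lay beside them at 56.4, and WT B of 12 mo lay at -42.9. The p53+/- arrays lay at 5.66 and 21.6 and the p53+/m arrays at -12.0 and -0.01. The 2 mo arrays lay at -53.2 and -54.6 and the 6 mo arrays at -35.0 and -18.3. The 5' probe set for 18S rRNA moved along with this in part. It was at 4.84 and 5.44 at 21 mo, against 4.66 and 9.68 in WT, 8.92 and 7.96 in p53+/- and 5.71 and 7.18 in p53+/m HSC of 12 mo. At 2 mo it was 10.9 and 10.9 and at 6 mo 11.2 and 8.28. Of the HSC arrays, both 21 mo arrays and WT A of 12 mo had the lowest 18S readings and lay highest on the axis. The p53+/m A array read low without lying toward 21 mo. WT B of 12 mo also stood apart in the 3' minus 5' difference of control probe sets, at 5.42 for Gapdh and 6.27 for Actb, against 3.10 to 4.09 and 2.73 to 4.07 on the other 7 arrays compared. The part of these readings in the results was not tested. Without WT A of 12 mo, 1037 probe sets rose and 614 fell, and these held 146 of the 147 and 67 of the 68. Without WT B of 12 mo the numbers were 245 and 132, and leaving out 21 mo A gave 90 and 15 and leaving out 21 mo B gave 85 and 23. They were 65 and 31 without p53+/m A, 91 and 32 without p53+/m B, 103 and 35 without p53+/- A, 83 and 32 without either 2 mo array, and 104 and 32 without either 6 mo array. Over 20 stem cell receptor genes the mean level was 7.47 and 7.60 at 21 mo and 6.64 and 6.64 in whole bone marrow (WBM). Among them Procr, the endothelial protein C receptor, was at 13.62 and 14.09 at 21 mo. Its range at 12 mo was 12.85 to 13.72, and it was at 4.41 and 4.14 in WBM. Cd3e of T cells was at 2.51 and 2.52 at 21 mo and Cd79a of B cells at 2.33 and 2.37, close to the floor of the scale. Not all lineage genes were. Over 8 immunoglobulin and plasma cell genes the mean was 6.50 and 5.39 at 21 mo, against 4.89 to 6.44 at 12 mo.

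Genes known from myeloid cells stood among the largest rises, and 4 of the named genes kept their call under every alternative in which they were tested: Ly86, Slfn4, Fcgr3 and Mmp8. Ly86, which encodes MD-1, the partner of the Toll-like receptor relative Cd180, was at 6.30 and 7.13 at 21 mo, against 3.36 and 1.72 in WT, 1.69 and 1.70 in p53+/- and 1.72 and 1.70 in p53+/m HSC of 12 mo. It thus stood near the floor on 5 of the 6 arrays of 12 mo, and WT A was the exception. The difference was 4.74 (SE 0.44, adjusted p = 0.00728). No fold is given, since the levels of 12 mo near the floor set it. Its partner Cd180 did not pass, at 2.32 and 2.33 at 21 mo, against a range of 2.31 to 2.59 at 12 mo.

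The Schlafen gene Slfn4, of a family first known from T-cell growth and found in myeloid cells, was at 5.07 and 6.02 at 21 mo, against 1.76 and 1.99 in WT, 1.73 and 1.75 in p53+/- and 1.76 and 1.89 in p53+/m HSC. No array of 12 mo came near those of 21 mo, and the difference was 3.73 (SE 0.22, adjusted p = 0.00115). Fcgr3, a receptor for the constant part of IgG, stood at 4.60 and 4.89 at 21 mo, against 3.03 and 2.95 in WT, 2.91 and 3.10 in p53+/- and 3.05 and 3.05 in p53+/m HSC. Arrays of 12 mo spread little, and the difference was 1.73 (SE 0.09, adjusted p = 0.00077). The granule collagenase Mmp8 read 3.65 and 3.21 at 21 mo, against 2.18 and 2.32 in WT, 2.17 and 2.20 in p53+/- and 2.21 and 2.17 in p53+/m HSC, a difference of 1.22 (SE 0.10, adjusted p = 0.00633). Fcgr3 and Mmp8 stayed under 5 on both 21 mo arrays, so the alternative with a filter at log2 5 did not test them. Other fold thresholds were applied to counts of probe sets and not to single genes. At 4-fold the differences of Fcgr3 and Mmp8, 1.73 and 1.22, would be too small. Slfn4, Fcgr3 and Mmp8 all read low at 12 mo, with SDs over the 6 arrays of 0.11, 0.07 and 0.06. This narrow spread at low levels enters the SE and the adjusted p.

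The promoters of these 4 genes are shown because theirs are the calls that held in every alternative in which they were tested. They are RefSeq windows of 300 bases on GRCm38.p6 that span the gene's start, most of the window lying before it, and read along the gene. Fcgr3 and its window lie on the minus strand and the other genes on the plus strand, and of the 2 windows listed for Fcgr3 the first was used. Capitals mark GAGGAA, the core bound by PU.1, and TTNNGNAA, a loose form of the C/EBP site, on either strand. PU.1 and C/EBP factors are known to drive myeloid genes.
Ly86, chr13:37345095-37345394: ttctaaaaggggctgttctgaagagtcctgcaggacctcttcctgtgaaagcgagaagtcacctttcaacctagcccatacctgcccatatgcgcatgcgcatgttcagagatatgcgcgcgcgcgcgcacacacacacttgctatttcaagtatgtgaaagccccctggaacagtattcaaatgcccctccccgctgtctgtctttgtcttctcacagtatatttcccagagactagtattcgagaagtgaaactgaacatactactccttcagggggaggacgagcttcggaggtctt
Slfn4, chr11:83174936-83175235: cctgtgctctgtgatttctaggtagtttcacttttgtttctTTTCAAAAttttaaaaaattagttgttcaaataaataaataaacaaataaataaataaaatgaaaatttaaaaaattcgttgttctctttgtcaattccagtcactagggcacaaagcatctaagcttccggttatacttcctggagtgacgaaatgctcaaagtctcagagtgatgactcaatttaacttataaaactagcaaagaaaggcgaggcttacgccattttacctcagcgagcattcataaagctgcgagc
Fcgr3, chr1:171059354-171059653: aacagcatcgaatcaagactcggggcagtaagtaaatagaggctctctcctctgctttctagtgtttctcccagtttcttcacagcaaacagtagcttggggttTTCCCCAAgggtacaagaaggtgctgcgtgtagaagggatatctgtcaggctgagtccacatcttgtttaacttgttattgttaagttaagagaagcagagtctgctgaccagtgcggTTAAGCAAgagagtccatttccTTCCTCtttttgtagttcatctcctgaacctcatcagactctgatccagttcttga
Mmp8, chr9:7558179-7558478: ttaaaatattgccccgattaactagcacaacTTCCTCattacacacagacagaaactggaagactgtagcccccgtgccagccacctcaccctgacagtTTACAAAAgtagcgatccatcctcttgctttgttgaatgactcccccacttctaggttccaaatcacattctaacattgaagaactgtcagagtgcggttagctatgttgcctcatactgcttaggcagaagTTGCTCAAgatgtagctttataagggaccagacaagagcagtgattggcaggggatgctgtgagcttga

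Fcgr3 and Mmp8 each held 1 GAGGAA and 2 TTNNGNAA, Slfn4 held 1 TTNNGNAA and Ly86 neither. These motifs are common. Among 27025 promoters, 28.3% held GAGGAA, 40.7% TTNNGNAA and 11.8% both. Among 108 genes that rose and have a promoter in the table the shares were 30.6%, 38.9% and 13.9%, and among 45 that fell they were 22.2%, 24.4% and 8.89%. A match describes the letters of the window and not a bound site.

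Of 13 neutrophil granule genes measured, 3 rose and none fell, with a background of 0.557% of genes that rose and 0.331% that fell. The list's median difference was 1.47, beside -0.04 over all 12393 genes, and 13 of 13 differences were positive. The members that rose were Chil3, Lcn2 and Mmp8. Chil3, a secreted chitinase-like protein, was at 9.59 and 10.32 at 21 mo, against 7.76 and 4.68 in WT, 4.08 and 4.38 in p53+/- and 5.42 and 5.50 in p53+/m HSC (difference 4.65, SE 0.82, adjusted p = 0.048). Lcn2, which binds the iron carriers of bacteria, stood at 7.10 and 6.18 at 21 mo, against 3.83 and 4.53 in WT, 2.83 and 2.87 in p53+/- and 2.92 and 4.38 in p53+/m HSC (3.08, SE 0.50, adjusted p = 0.0393). Both genes kept apart from all arrays of 12 mo, but Chil3 has close relatives whose RNA its probes may share. Other abundant members did not pass. S100a8, a subunit of calprotectin, read 10.02 and 8.94 at 21 mo, against 6.82 and 9.81 in WT, 4.12 and 4.13 in p53+/- and 6.59 and 8.47 in p53+/m HSC (2.82, adjusted p = 0.193), so the groups overlapped. Elane, the neutrophil elastase, was at 2.31 and 2.22 at 21 mo, with a range of 2.19 to 2.23 at 12 mo, and at 6.24 and 6.65 in WBM.

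Of 13 monocyte and macrophage genes, 4 rose and none fell, and the median difference was 0.64. Mpeg1, the pore-forming perforin-2 of macrophages, was at 8.61 and 8.32 at 21 mo, against 5.46 and 5.60 in WT, 3.56 and 2.78 in p53+/- and 4.72 and 4.04 in p53+/m HSC (4.11, SE 0.68, adjusted p = 0.0412). The receptor for macrophage colony-stimulating factor, Csf1r, stood at 4.89 and 5.40, against 3.41 and 3.24 in WT, 2.07 and 2.43 in p53+/- and 3.20 and 3.26 in p53+/m HSC (2.21, SE 0.25, adjusted p = 0.0156), and a further probe set of Csf1r rose by 1.19 while the third stayed at 2.18 at 21 mo and 2.19 at 12 mo. Without 21 mo B the adjusted p of Csf1r was 0.0686. Fcgr3 and the membrane protein Ms4a6c (1.25, SE 0.22, adjusted p = 0.0493) were the others. Ccr2, the chemokine receptor that draws monocytes out of marrow, lay above all 6 arrays at 5.42 and 6.95, against a range of 4.15 to 4.48, but did not pass (1.91, adjusted p = 0.0523). Several defining markers were no higher at 21 mo than at 12 mo: Itgam, the CD11b chain, at 2.45 and 2.47, Fcgr1 at 1.95 and 1.96, and Cx3cr1 at 3.64 and 3.77.

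The mean level over the neutrophil list was 6.68 and 5.97 on the 21 mo arrays, against 3.68 to 5.22 on the 12 mo arrays, 3.61 to 5.25 on the 2 and 6 mo arrays, and 12.7 and 12.9 in WBM. Over the monocyte list it was 5.53 and 5.80 at 21 mo, against 4.45 to 4.76 at 12 mo, 4.51 to 4.89 at 2 and 6 mo, and 8.49 and 8.77 in WBM. The lineage antibodies of the sort included those to Mac-1 and Gr-1, which mark mature monocytes and neutrophils. Mature cells carried along all the same in the sort and a rise within HSC cannot be told apart in these pools, and the part of such cells was not tested. Among all probe sets that rose, 76 of 147 (51.7%) were at least 2-fold higher in WBM than in HSC of 12 mo, beside 12% of all probe sets, and 20 (13.6%) were at least 5 log2 units higher, beside 1.13%. Of the 16 genes in this last set, 15 have a promoter in the table, and 46.7% of these held GAGGAA, 73.3% TTNNGNAA and 40% both, as a description of few genes. Of the 68 that fell, 52 (76.5%) were at least 2-fold lower in WBM, beside 12% of all. The 12 mo mean enters both the calls and these comparisons with WBM, which can raise the shares by selection, so they are a description. Against WT of 12 mo alone, 1 neutrophil gene (Mmp8) and 1 monocyte gene (Fcgr3) passed, where 0.129% of genes rose. Without WT A of 12 mo, 5 and 6 passed, where 4.18% of genes rose, and without WT B 3 and 4 passed. Leaving out any other HSC array gave 1 or 2 neutrophil genes and 2 or 3 monocyte genes. These were not always the genes named, since Mpo and Ccr2 passed without 21 mo A, when Lcn2, Chil3, Mpeg1 and Ms4a6c did not.

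Of 14 genes of Toll-like receptors and their partners, Ly86 alone passed, and the list's median was -0.04. Tlr4, the receptor for bacterial lipopolysaccharide, was at 7.29 and 7.59 at 21 mo, against 6.88 and 5.73 in WT, 4.89 and 4.25 in p53+/- and 5.87 and 6.77 in p53+/m HSC (1.71, adjusted p = 0.117). Traf6, an adaptor of these receptors, also lay above all arrays of 12 mo without passing, at 7.21 and 7.18, against a range of 4.61 to 6.08 (1.62, adjusted p = 0.0566). No gene of the B lineage (16 measured), the T and NK list (14), the erythroid list (12), the endothelial and stromal list (15) or the mast cell and basophil list (9) rose or fell. The same held for immunoglobulin and plasma cell genes (8) and MHC class II genes (8). At an unadjusted limma p of 0.05 or less and 2-fold, 1 gene of the T and NK list was higher and none of the others. Megakaryocyte and platelet genes (13) had a median of 0.45, no call and 3 members higher at that unadjusted level, beside 3.11% of all genes. Against WT of 12 mo alone the median was -0.01. Selp, or P-selectin, was at 10.63 and 10.78 at 21 mo, against 9.37 and 10.47 in WT, 7.89 and 8.86 in p53+/- and 9.73 and 10.48 in p53+/m HSC (1.24, adjusted p = 0.224).

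Other genes among the 10 largest rises came from varied families. Ms4a4c, of the same membrane family as Ms4a6c, was at 6.38 and 7.18 at 21 mo, against 3.15 and 3.27 in WT, 3.12 and 3.17 in p53+/- and 4.33 and 3.14 in p53+/m HSC (3.42, SE 0.32, adjusted p = 0.00728), and its other probe set rose by 2.24. These probe sets match several transcripts by design. The chemokine Ccl6 rose on both of its probe sets, by 2.69 (SE 0.31, adjusted p = 0.0159) and 1.49, and read 6.32 and 5.78 on the higher set at 21 mo, against a median of 3.10 and a highest level of 4.07, on WT A, at 12 mo. Vma21, an assembly factor of the proton pump of lysosomes, was at 5.99 and 6.73 at 21 mo, against a range of 2.85 to 3.02 at 12 mo (3.40, SE 0.41, adjusted p = 0.0192), whereas its other probe set, with a difference of 1.31, did not pass. Enpp5, of a family of ectonucleotide phosphodiesterases, read 5.68 and 5.51 at 21 mo, against a range of 2.51 to 3.54 (2.70, SE 0.28, adjusted p = 0.0115). Calls of Vma21 and Enpp5 were lost without either 21 mo array (adjusted p of 0.0513 and 0.0598 without A), that of Ccl6 without 21 mo A (0.0837), and those of Vma21 and Ccl6 against WT of 12 mo alone (0.0658 and 0.0741).

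The transcript of Ctnnb1, or beta-catenin, gave unlike readings on its 3 probe sets. The set that rose was at 7.14 and 6.85 at 21 mo, against 5.16 and 2.74 in WT, 2.78 and 2.80 in p53+/- and 2.80 and 3.86 in p53+/m HSC (3.64, SE 0.59, adjusted p = 0.0374). The set with the highest signal averaged 14.3 at 21 mo and 13.5 at 12 mo (0.84, adjusted p = 0.174), and the third had a difference of 0.02. The call of Ctnnb1 therefore rests on 1 of its 3 probe sets. Calls of Chil3, Mpeg1, Lcn2 and Ctnnb1 also depended on the fit, and held in 7, 11, 9 and 8 of 23 alternatives. All 4 calls were lost when either 21 mo array was left out, and against WT of 12 mo alone. Of 32 probe sets named under a fixed rule and called, 22 lost the call without 21 mo A, 24 without 21 mo B, 14 and 8 without p53+/- A and B, 18 and 17 without p53+/m A and B, and 13 without any 1 array of 2 or 6 mo, while all 32 were called without WT A or B of 12 mo. The 7 called whichever array was left out were Ly86, Slfn4, Fcgr3, Mmp8, Ms4a4c, Cxcr4 and Ctse.

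**Figure D1:**
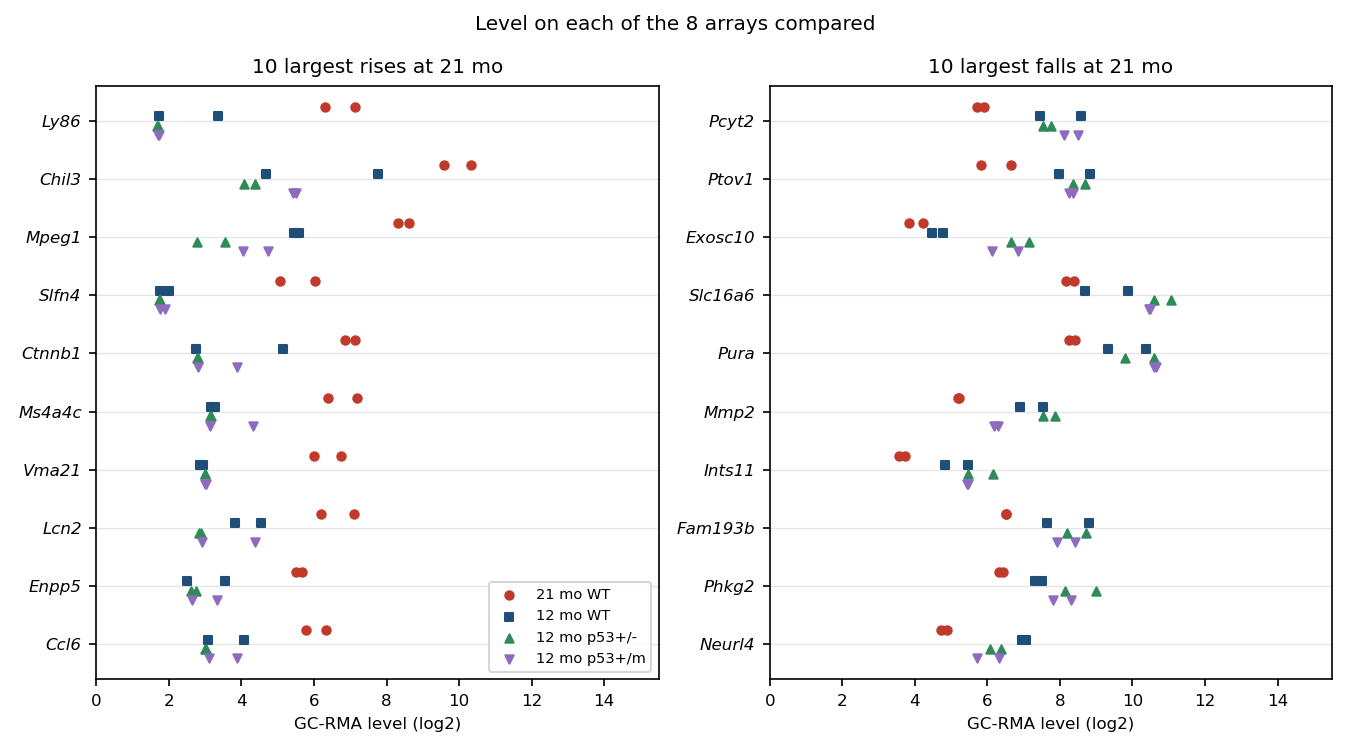
Level of the 10 genes with the largest rises (left) and the 10 with the largest falls (right) among called probe sets that do not overlap, on the log2 scale of GC-RMA. Each row shows the 2 arrays of 21 mo WT (red), 12 mo WT (blue), 12 mo p53+/- (green) and 12 mo p53+/m HSC (purple). Ly86 and Slfn4 lie at or below 3.36 on all 6 arrays of 12 mo, and for Exosc10 12 mo WT lies close to 21 mo.

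The largest falls were smaller than the largest rises. Pcyt2, which makes the activated ethanolamine for membrane lipids, was at 5.90 and 5.70 at 21 mo, against 7.45 and 8.57 in WT, 7.75 and 7.53 in p53+/- and 8.10 and 8.49 in p53+/m HSC (-2.18, SE 0.30, adjusted p = 0.0255). Ptov1 stood at 6.65 and 5.84 at 21 mo, against 7.98 and 8.84 in WT, 8.69 and 8.36 in p53+/- and 8.35 and 8.25 in p53+/m HSC (-2.16, SE 0.29, adjusted p = 0.0237), and its other probe set fell too, by 1.30. Both genes were separated from every array of 12 mo. Neurl4 was lower than each genotype taken alone, at 4.71 and 4.89 at 21 mo, against 6.94 and 7.05 in WT, 6.36 and 6.06 in p53+/- and 5.71 and 6.32 in p53+/m HSC (-1.61, SE 0.18, adjusted p = 0.0159). Without 21 mo A or B its adjusted p was 0.0833 or 0.0562, and that of Pcyt2 0.113 or 0.13.

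Ints11, the RNA-cutting subunit of the Integrator complex, was at 3.57 and 3.72 at 21 mo, against 4.84 and 5.48 in WT, 6.15 and 5.46 in p53+/- and 5.47 and 5.45 in p53+/m HSC (-1.83, SE 0.31, adjusted p = 0.0414). Pura, a protein that binds single-stranded nucleic acids, fell by 1.88 (SE 0.30, adjusted p = 0.0374) on the set named, while its other probe sets, at -0.26 and -0.11, did not pass. Mmp2, a gelatinase, fell by 1.84 (SE 0.31, adjusted p = 0.0437), with a larger difference that did not pass on its other set (-2.61, adjusted p = 0.111). Phkg2, a catalytic subunit of phosphorylase kinase, fell by 1.63, Fam193b by 1.77 and the monocarboxylate transporter family gene Slc16a6 by 1.91, with adjusted p of 0.0393, 0.0449 and 0.0433. In Slc16a6 the 12 mo WT arrays, at 8.69 and 9.88, lay between 21 mo (8.18 and 8.38) and the mutants (10.45 to 11.05). These 6 calls held in 6 to 11 of 23 alternatives.

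The course over age was read from the 2 and 6 mo WT arrays as well. Of the 147 rises, 120 were late-only, meaning that both 21 mo arrays lay outside all 10 other HSC arrays and the 12 mo mean lay within 1 log2 unit of the mean at 2 and 6 mo. Another 7 had moved the same way by 12 mo, 9 had moved the opposite way and 11 fitted none of these. Of the 68 falls, 60 were late-only, 4 had moved the same way, 3 the opposite way and 1 fitted none. Over all probe sets, 5.13% lay above and 10.3% below all 10 other HSC arrays. The median level of the 120 was 4.43 at 2 mo, 4.67 at 6 mo, 5.17 in WT, 4.54 in p53+/- and 4.78 in p53+/m HSC of 12 mo, and 6.76 at 21 mo. For the 60 it was 8.75, 8.49, 8.18, 8.51, 8.33 and 6.81 in the same order. In both sets the 12 mo WT median lay nearest to 21 mo, and WT A was the 12 mo array closest to the 21 mo mean in 70 of the 147 rises (47.6%) and 34 of the 68 falls (50%), beside 37.2% of all probe sets. The late-only split uses the contrast that made the calls, so it is a description. Its 12 mo mean takes in the mutants, and in WT part of the shift of these medians was present by 12 mo.

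**Figure D2:**
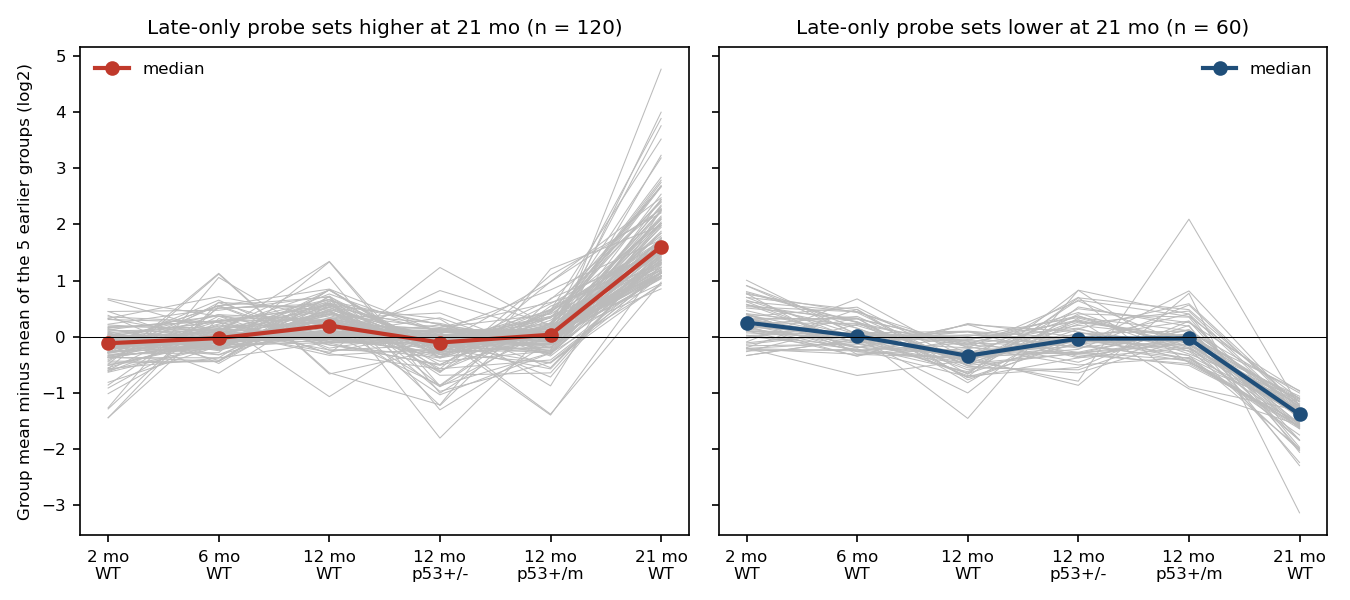
Course of the late-only probe sets, with the group means of each probe set (gray lines) and their median (thick line), on the log2 scale and relative to the mean of the 5 earlier groups. Groups run from 2 mo WT to 21 mo WT along the horizontal axis. The medians of the 120 rises (left) and the 60 falls (right) lie furthest from 0 at 21 mo. In WT HSC the median level of the rises was 4.43 at 2 mo, 5.17 at 12 mo and 6.76 at 21 mo. That of the falls was 8.75, 8.18 and 6.81.

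Pmaip1 and Tgif1 followed the late-only course. Pmaip1, or Noxa, a p53 target and a death-promoting member of the Bcl-2 family, was at 5.29 and 5.59 at 21 mo, against 4.55 and 3.88 in WT, 3.67 and 4.24 in p53+/- and 3.82 and 3.80 in p53+/m HSC, and its mean at 2 and 6 mo was 3.77 (1.44, SE 0.25, adjusted p = 0.0432). It held in 8 of 23 alternatives. Tgif1, a corepressor of SMAD proteins in TGF-beta signaling, read 5.39 and 4.78 at 21 mo, against 3.83 and 2.84 in WT, 2.99 and 3.15 in p53+/- and 2.88 and 2.87 in p53+/m HSC, and 3.04 at 2 and 6 mo (1.99, SE 0.30, adjusted p = 0.0321), and held in 10 of 22. Chil3 was among the 7 that had moved the same way before, since its mean was 4.18 at 2 and 6 mo and 5.30 at 12 mo. Pmaip1 and Tgif1 were the members of their lists that rose, of 28 p53 target genes, 16 Bcl-2 family genes and 27 TGF-beta and SMAD genes. The medians of these lists were -0.03, -0.02 and -0.03.

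Some calls rested on the mutant side of 12 mo. Of the 147 rises, 110 were at least 2-fold against WT of 12 mo alone and 37 were not, and of the 68 falls 42 were and 26 were not. The median difference against WT alone was 1.34 for the rises and -1.08 for the falls. Tested against WT of 12 mo alone, 39 probe sets rose and 10 fell. Against each of the 3 genotypes in turn, 27 rose in all and 3 fell in all, and those that fell were Rapgef1, Csad and Neurl4. The 27 included Ly86, Slfn4, Fcgr3, Mmp8, Ms4a4c and Enpp5.

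Cxcr4, the receptor that holds HSC in the marrow niche, was a clear case. It was at 9.65 and 9.62 at 21 mo, against 9.67 and 9.48 in WT, 7.02 and 7.45 in p53+/- and 5.73 and 5.97 in p53+/m HSC of 12 mo. The call (2.08, SE 0.19, adjusted p = 0.00717) thus stands beside a difference of 0.06 from 12 mo WT, and 12 mo WT exceeded the mutants by 3.04 (adjusted p = 0.00707). The aspartic protease Ctse read 11.33 and 11.07 at 21 mo, against 11.04 and 11.05 in WT, 6.55 and 5.80 in p53+/- and 10.41 and 10.48 in p53+/m HSC, so that its call (1.98, SE 0.18, adjusted p = 0.00717) rests on p53+/-. Ndufb3, a subunit of respiratory complex I and the member called among 41 genes of oxidative phosphorylation, was 1.42 above the 12 mo mean (SE 0.19, adjusted p = 0.0241) but 0.50 above 12 mo WT.

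Falls of this kind included Plk3 and Exosc10. Plk3, a stress-response kinase and p53 target, was at 5.79 and 5.38 at 21 mo, against 5.34 and 5.34 in WT, 7.81 and 7.36 in p53+/- and 6.97 and 7.32 in p53+/m HSC (-1.10, SE 0.16, adjusted p = 0.0287), and its sign turned against WT alone, to 0.24. Exosc10, the nuclease of the nuclear RNA exosome, stood at 4.22 and 3.83 at 21 mo, against 4.49 and 4.77 in WT, 7.16 and 6.66 in p53+/- and 6.84 and 6.13 in p53+/m HSC (-1.98, SE 0.22, adjusted p = 0.0156), with -0.60 against WT alone. Of its other probe sets, those at -1.93 and -1.91 did not pass, nor did the set at -0.02. Several genes picked after their values were seen did the same. Scd2, a fatty acid desaturase, was at 7.36 and 7.09 at 21 mo, against 6.20 and 7.59 in WT and 3.53, 2.93, 2.66 and 2.43 in the mutants. These levels of Scd2 come from a probe set weaker than its strongest, which is not described here. Tmsb10, which binds actin monomers, read 7.66 and 6.72, against 7.55 and 7.19 in WT and 2.53, 2.33, 2.59 and 2.34 in the mutants. The chemokine Cxcl1 went the other way, at 3.02 and 3.26, against 2.91 and 3.20 in WT and 6.85, 6.32, 4.52 and 5.55 in the mutants. On the probe sets given, the WT arrays of 12 mo lay with those of 21 mo in all 3. A probe set with no gene symbol had the widest gap, at 1.46 and 1.47 at 21 mo, against 1.47 and 1.47 in WT and 9.41, 9.80, 8.54 and 6.54 in the mutants. Array means of log2 values were 5.27 to 5.29 on the WT HSC arrays and 5.24 to 5.26 on the mutant arrays, and whether that bears on these genes was not tested.

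**Figure D3:**
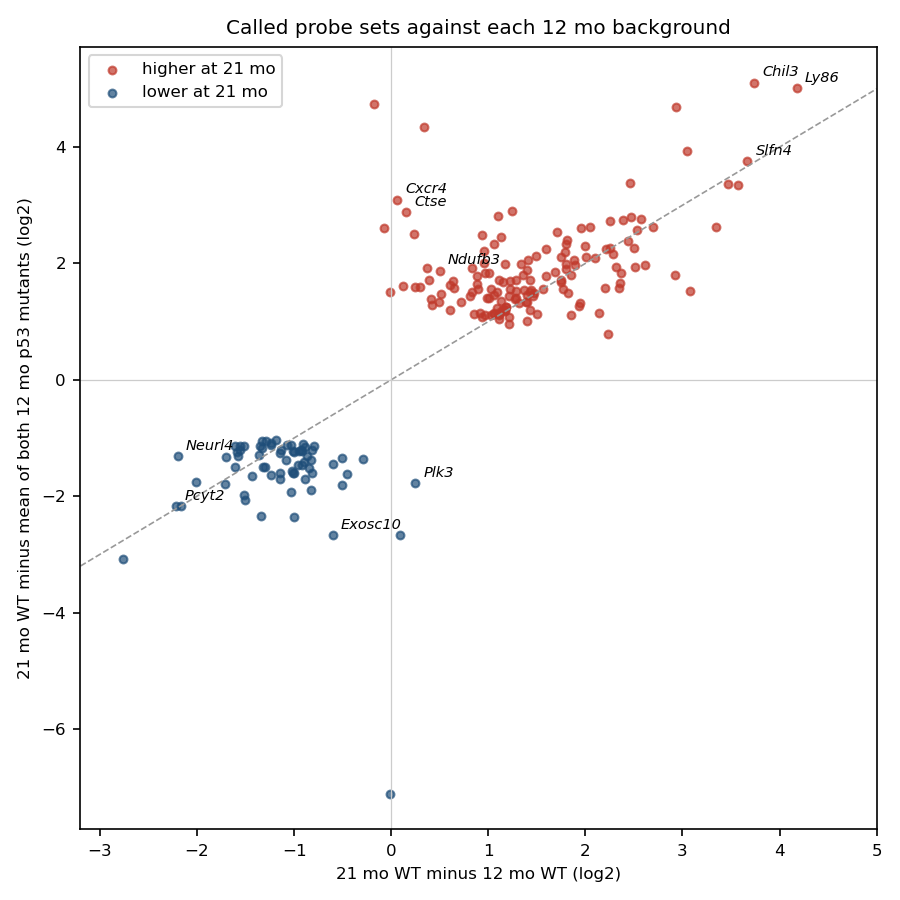
Difference of each called probe set (147 rises and 68 falls) from 12 mo WT (horizontal axis) and from the mean of both 12 mo p53 mutants (vertical axis), in log2 units, rises in red and falls in blue, with the line of equality dashed. Ly86, Chil3 and Slfn4 lie far along both axes, whereas Cxcr4, Ctse, Plk3 and Exosc10 lie within 1 unit of 0 on the horizontal axis. The lowest point is the probe set with no symbol.

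Among stem cell genes the call was that of Cxcr4. It was the member called of 20 stem cell receptor genes, and of 22 transcription factor genes none rose or fell, with medians of 0.17 and 0.09. At an unadjusted limma p of 0.05 or less and 2-fold, 1 of the 22 was higher and 1 lower. Over all genes the shares were 3.11% and 1.93%. Hlf, a transcription factor of HSC, came closest of those named here, at 11.55 and 11.24 at 21 mo, with a range of 9.80 to 10.87 at 12 mo (1.20, adjusted p = 0.057), and it was picked after its values were seen. Kit, the receptor for stem cell factor, was at 10.16 and 10.18 at 21 mo, against 10.24 and 8.59 in WT, 8.88 and 8.76 in p53+/- and 8.46 and 8.70 in p53+/m HSC (1.23, adjusted p = 0.166). Here WT A of 12 mo read like 21 mo while the other 5 arrays did not.

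Genes of chromatin and of DNA repair gave 1 fall each. Smarca4, the BRG1 motor of the SWI/SNF remodeler, was at 8.45 and 8.47 at 21 mo, against 9.23 and 9.56 in WT, 9.76 and 9.64 in p53+/- and 9.77 and 9.49 in p53+/m HSC (-1.11, SE 0.15, adjusted p = 0.0239), as the member called of 36 chromatin remodeling and silencing genes. Xab2, which acts in transcription-coupled repair and splicing, stood at 8.53 and 8.92, against 9.79 and 10.40 in WT, 10.19 and 9.81 in p53+/- and 10.20 and 9.90 in p53+/m HSC (-1.32, SE 0.21, adjusted p = 0.0391), of 37 repair genes, and fell on a further probe set by 1.45. On these sets both genes were below every array of 12 mo. The other probe set of Smarca4 read 6.14 and 6.49 at 21 mo, within the range of 6.11 to 8.63 at 12 mo (-0.57, SE 0.59, adjusted p = 0.617). The call of Smarca4 held in 18 and that of Xab2 in 7 of 23 alternatives, and both were lost without either 21 mo array. No sirtuin or histone deacetylase (13 measured, median -0.44) passed, and 11 of 13 differences were negative. None of 35 protein folding genes passed on the 1 probe set read for each, with 27 positive and a median of 0.30. The Hsp40 chaperone gene Dnajc3 did rise on 2 of its 5 probe sets, by 1.36 and 1.71, which are not counted here. Nor did any of 20 NF-kB genes (median -0.21) or 29 interferon-induced genes (median near 0) pass on the set read. The same held for 26 immediate early genes (-0.06) and 39 cell cycle genes (0.18). At an unadjusted limma p of 0.05 or less and 2-fold, 2 sirtuin or deacetylase genes were lower, 1 folding gene higher, 1 NF-kB gene lower, 1 interferon-induced gene higher, 2 immediate early genes lower and 1 cell cycle gene each way. Over all genes the shares at that level were 3.11% higher and 1.93% lower.

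Another 19 genes had been picked on samples that include these arrays as rising with age, and 18 as falling, so their direction is not independent evidence. On the 1 probe set read for each gene, none of the 19 passed in limma, 18 differences were positive and the median was 0.81. Ctnnb1 and Dnajc3, which the study names as rising, were called on probe sets not counted here. These were 1 set of Ctnnb1 (3.64, limma adjusted p = 0.0374) and 2 of 5 sets of Dnajc3. At an unadjusted limma p of 0.05 or less and 2-fold, 5 of the 19 were higher, beside 3.11% of all genes. Of the 18, Xab2 and Smarca4 passed, 17 differences were negative and the median was -0.72. Dnaja2, an Hsp40 chaperone, had the largest positive difference, at 10.03 and 9.74 at 21 mo, against 9.76 and 4.92 in WT, 8.12 and 8.60 in p53+/- and 7.86 and 7.89 in p53+/m HSC (2.03, adjusted p = 0.409), with 12 mo WT A at the level of 21 mo. Ctss, a lysosomal cathepsin, was at 11.44 and 11.40, against a range of 9.27 to 10.96 (1.41, adjusted p = 0.182). The deacetylase Hdac6 read 4.41 and 5.89 at 21 mo, against a range of 6.36 to 7.73 at 12 mo (-1.83, adjusted p = 0.156). Rad52, of homologous recombination, read 4.81 and 6.22, against 6.86 to 7.39 (-1.59, adjusted p = 0.0848). In the last 3 the 21 mo arrays lay apart from all 6 arrays of 12 mo. Against WT of 12 mo alone, where 0.129% of genes rose and 0.0565% fell, limma called no gene of either list. With only the 8 arrays compared, where 0.161% rose and 0.0646% fell, it called none either. Without WT A of 12 mo the medians of the 19 and the 18 were 0.87 and -0.82, and without WT B they were 0.74 and -0.70. Without 21 mo A they were 0.89 and -0.71, and without 21 mo B 0.68 and -0.73. Medians over all genes in these fits lay between -0.04 and -0.02.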

How the data were processed

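RNA of 12 HSC arrays and 2 WBM arrays (Affymetrix MOE430A) was used as deposited. Values deposited by the authors are on the log2 scale and come from GC-RMA, after image reading in MAS 5.0; GC-RMA corrects background by probe GC content and normalizes between arrays. No source used here gives its version or says if the arrays shared a normalization run. Without 64 controls, 22626 probe sets were tested, of which 20380 carry 1 symbol, 691 several and 1555 none, for 12393 genes. No filter was applied, and 52.7% of probe sets lay under log2 5 on all 12 mo arrays.

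Group means of 6 HSC groups were fitted with limma 3.58.1 in R 4.3.3 (lmFit, eBayes, 6 residual degrees of freedom), with Benjamini-Hochberg adjustment over all probe sets. Each list gene was read on whichever of its probe sets averaged highest on HSC arrays. Named are the 10 largest rises and falls with 1 symbol and no overlap, up to 4 called members per list and direction, and the 3 largest differences among genes the study names. The members and lists were chosen with earlier results of these data known. The array letters were not treated as pairs in the main fit. The code was checked on simulated data. Alternatives varied the arrays, the 12 mo side, normalization, filter, fold and prior. Only 2 arrays per group limit the precision.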

Additional observations from a re-analysis of the deposited data

Results flagged for a closer look

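Ly86 was at 3.36 on WT A of 12 mo, apart from the other 5 arrays of 12 mo, which lay between 1.69 and 1.72. This array is the one that lies beside the 21 mo arrays on the leading principal component. Ms4a4c was at 4.33 on p53+/m A of 12 mo, apart from the other 5, which lay between 3.12 and 3.27. Each of these gaps was large for a group of 6, past a limit that chance exceeds in about 1 in 20 groups of like samples. The limit allows neither for the number of genes looked at nor for the 3 genotypes among the 6 arrays, so the gaps are a description. Exosc10 was lower in WT than in the p53 mutants at 12 mo by a tested difference of -2.07 (limma adjusted p = 0.0297), so that its difference at 21 mo depended on the 12 mo genotype.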

How the results depend on the processing

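With 2 arrays a group, the numbers of probe sets that rose and fell (147 and 68) depended on the arrays in the fit. They were 43 and 13 with the 8 arrays compared alone, 46 and 8 with those 8 arrays and the 12 mo genotypes taken as 1 group, and 39 and 10 against 12 mo WT. Against p53+/m alone 137 fell. A filter at log2 5, which left 10333 probe sets, gave 261 and 158, no fold threshold 236 and 157, and a 4-fold threshold 43 and 5. Leaving out 1 array at a time gave 65 to 1037 rises and 15 to 614 falls, the highest without 12 mo WT A. A further setting, added after seeing the data, dropped both 12 mo WT arrays and gave 727 and 415. Correlations of the deviations of same-lettered arrays among the 8 compared lay between -0.19 and 0.13, which cannot exclude a batch shared by letter. With the letter as a replicate block 85 rose and 29 fell. Against p53+/- alone (173 and 81), with quantile normalization (109 and 63), median centring (158 and 78) or a trended robust prior (131 and 46) the counts stayed within 1.5 times. Plk3 reversed against 12 mo WT, at 0.24. The cause of these shifts was not tested. Counts of called list members under the same settings were added after seeing the data.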

Other observations

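The genes below were picked after their values were seen, from probe sets that rose or fell against each 12 mo genotype in turn. Slc31a1, the copper importer Ctr1, had a narrow spread, at 5.07 and 5.18 at 21 mo, against 3.28 and 3.27 in WT, 3.52 and 3.26 in p53+/- and 3.28 and 3.26 in p53+/m HSC of 12 mo (1.82, limma adjusted p = 0.000298). Twist1, a transcription factor known from mesoderm, was at 4.33 and 4.16 at 21 mo, against 3.11 and 3.16 in WT, 3.10 and 3.11 in p53+/- and 3.13 and 3.19 in p53+/m HSC (1.11, adjusted p = 0.000505). Both lay at about the 12 mo level in WBM, Slc31a1 at 3.29 and 3.27 and Twist1 at 2.97 and 3.10.

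Fpr2, Ifitm6 and Ms4a4b, in contrast, were high in WBM. Fpr2, a receptor for formylated bacterial peptides, was at 5.77 and 4.96 at 21 mo, against a range of 2.62 to 2.97 at 12 mo, and at 13.22 and 13.18 in WBM (2.65, adjusted p = 0.00385). Ifitm6, of a family of interferon-induced membrane proteins, read 5.61 and 4.85 at 21 mo, against a range of 2.94 to 3.02, with 12.61 and 12.70 in WBM (2.26, adjusted p = 0.00717). Ms4a4b, a relative of Ms4a4c, was at 6.66 and 6.31, against 3.87 to 3.98, with 10.79 and 10.69 in WBM (2.57, adjusted p = 0.000505). None of the 12 mo arrays approached 21 mo in these genes.

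Among falls, Csad, which makes the precursor of taurine, was at 9.25 and 9.43 at 21 mo, against 10.61 and 10.67 in WT, 11.16 and 10.94 in p53+/- and 10.68 and 10.58 in p53+/m HSC (-1.43, adjusted p = 0.00125). Rapgef1, an exchange factor for the GTPase Rap, read 6.80 and 6.78, against 8.53 and 8.28 in WT, 8.55 and 8.62 in p53+/- and 8.03 and 7.95 in p53+/m HSC (-1.53, adjusted p = 0.000583). Ccl6, Ms4a4c and Tmem47 rose on 2 of 2 probe sets, Csf1r and Spred1 on 2 of 3 and Dnajc3 on 2 of 5. Ptov1 fell on 2 of 2, Xab2 on 2 of 3, Eftud2 on 2 of 4 and Pex6 on 2 of 5. Among probe sets with 1 symbol, no other gene was called on more than 1.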
